A study of Mus musculus with 8 samples.

Results

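The genes described here form the TIGIT, nectin and PVR axis, a set of immune receptors and the adhesion molecules they bind. The members were chosen by gene name. They are the receptor genes Tigit, Cd96 and Cd226 and the ligand or adhesion genes Pvr, Nectin2, Nectin3, Nectin1 and Nectin4, 8 of the 52636 gene IDs in the files. All 8 were found under their present names, and 6 of them were among the 11433 genes with at least 1 TPM (transcript abundance per length, scaled to a fixed library sum) in 4 or more libraries. Nectin1 and Nectin4 did not reach that level. The set was proposed with the levels and the group comparison of these libraries already known, so the differences between groups given here describe the libraries and support nothing further.

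TIGIT restrains the T and natural killer cells that carry it. It competes with the activating receptor CD226 for the ligand PVR, also known as CD155, and CD96 is a further receptor for PVR. PVR and the nectins are immunoglobulin-like membrane proteins of epithelial and other cells, and nectins also bind each other at cell contacts, where the adaptor afadin links them to the actin cytoskeleton.

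RNA came from mixed cultures of cancer cells and C57BL/6 spleen cells. In 4 co-cultures the colon cancer cells were trogocytic and in the 4 controls they were non-trogocytic. In both groups the cancer cells derived from liver metastases of tdTomato organoids placed in the spleen, and they were sorted on tdTomato and on the T cell protein CD4, which cancer cells can acquire by trogocytosis, the transfer of membrane pieces between cells. In both groups they were then kept for 5 days with splenocytes of Actin-GFP reporter mice, at 50 splenocytes to 1 cancer cell. The labels give neither the age of the mice nor the number of organoid lines, nor whether each replicate is its own animal. The p-values then cover the variation among these 8 libraries alone, part of which may be technical.

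Depth, from the ratio of coverage to FPKM, was 1.387 to 1.842 Gb per library. Genes of both cell sources were present in all 8. The epithelial genes Krt18 and Epcam ranged from 1711 to 4617 TPM and from 249.2 to 496 TPM. The T cell receptor complex genes Cd3e and Trac ranged from 1.47 to 51.9 TPM and from 18.0 to 321 TPM, and the leukocyte gene Ptprc from 55.8 to 345 TPM. Cd4 reached at most 1.46 TPM. Of 12 natural killer cell genes, 4 passed the filter. Tyrobp, which myeloid cells also express, ranged from 82.5 to 595 TPM, Nkg7 from 11.2 to 112 TPM, Eomes from 0.773 to 9.65 TPM and Klrd1 from 0 to 27.7 TPM. The receptor gene Ncr1, Klra8 and Gzmb were listed at 0 in all 8 libraries, and the other 5 reached at most 7.41 TPM. In such mixtures, fewer cells of a type and less RNA per cell cannot be told apart.

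Tigit (ENSMUSG00000071552.4) was the most abundant member. It stood at 66.2, 93.8, 102 and 73.0 TPM in trogocytic replicates 1 to 4, against 83.6, 78.8, 63.5 and 40.8 TPM in non-trogocytic replicates 1 to 4. The 2 highest libraries were trogocytic and the lowest was non-trogocytic replicate 4, with overlap between the groups. The means were 83.6 ± 16.8 TPM in trogocytic and 66.7 ± 19.3 TPM in non-trogocytic co-cultures (SD, n = 4 each). The fitted difference was 0.35 ± 0.28 (SE) on the log2(TPM + 1) scale. It was 0.14 when non-trogocytic replicate 4 was left out and 0.58 when both first replicates were.

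Cd96 varied far more. It stood at 53.1, 2.01, 12.8 and 37.5 TPM in trogocytic replicates 1 to 4, against 22.7, 5.98, 12.2 and 2.45 TPM in non-trogocytic replicates 1 to 4. Within the trogocytic group it was high in replicates 1 and 4 and lowest of all libraries in replicate 2, so the groups overlapped. The log2 difference was 0.88 ± 0.90 (SE). Leaving out 1 library gave 1.72 (trogocytic replicate 2) and 1.33 (non-trogocytic replicate 1), or 0.33, 0.49 and 0.40 (trogocytic replicates 1 and 4 and non-trogocytic replicate 4). With the leukocyte gene Ptprc as a covariate it was 0.33.

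Cd226, the activating counterpart of TIGIT, stood at 21.3, 8.94, 4.98 and 5.90 TPM in trogocytic replicates 1 to 4. In non-trogocytic replicates 1 to 3 it stood at 11.4, 2.48 and 9.03 TPM, and in replicate 4 it was listed at 0. The highest library was thus trogocytic replicate 1, and the other trogocytic libraries lay within the non-trogocytic range. The log2 difference was 1.10 ± 0.80 (SE), and leaving out non-trogocytic replicate 4 gave 0.37, while leaving out trogocytic replicate 1 gave 0.70. With Ptprc as a covariate it was 0.62.

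Tigit and Cd96 lie on the minus strand of chromosome 16, from 43648861 to 43664184 and from 46035657 to 46120251 (GRCm38, coordinates of the files). Their promoters are shown because these receptors, related in function and on the same chromosome, differed most in how they varied between libraries. The sequences are the 250 bases before the start (RefSeq, GRCm38.p6, minus strand, 5′ to 3′), at chr16:43664185-43664434 for Tigit and chr16:46120249-46120498 for Cd96, with matches on either strand to the ETS core GGAA, the RUNX motif TGTGGT and the E-box CANNTG in capitals.
Tigit: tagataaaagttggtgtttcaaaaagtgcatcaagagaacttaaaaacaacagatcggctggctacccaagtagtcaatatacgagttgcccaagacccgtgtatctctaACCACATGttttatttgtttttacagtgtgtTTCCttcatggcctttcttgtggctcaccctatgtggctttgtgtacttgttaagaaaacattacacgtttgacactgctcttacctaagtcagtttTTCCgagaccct
Cd96: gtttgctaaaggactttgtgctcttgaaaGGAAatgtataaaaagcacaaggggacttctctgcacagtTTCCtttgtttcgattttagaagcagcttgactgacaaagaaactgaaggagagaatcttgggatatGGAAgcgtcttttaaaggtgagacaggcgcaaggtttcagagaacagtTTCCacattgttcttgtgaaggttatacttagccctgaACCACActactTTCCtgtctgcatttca
Each sequence held 1 RUNX match, which 14.0% of 32851 mouse promoter windows of that length hold. Tigit had 2 and Cd96 had 5 ETS core matches, a motif found in 93.4% of windows, and Tigit had 1 E-box, found in 66.2%, which overlaps its RUNX match. The GC content was 40.0% for Tigit and 41.2% for Cd96, against a median of 52.4% over all windows. By contrast, the windows of the ligand genes Nectin2 and Nectin3 had 62.0% and 73.2% GC, and that of Nectin4 had 54.4%. No window was examined for Cd226, Pvr and Nectin1.

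Among the ligands, Pvr, on the minus strand of chromosome 7 from 19903578 to 19921160, encodes the main ligand of all 3 receptors. It stood at 17.6, 14.03, 17.3 and 17.0 TPM in trogocytic replicates 1 to 4, against 1.01, 13.5, 14.02 and 9.73 TPM in non-trogocytic replicates 1 to 4. All trogocytic values lay above all non-trogocytic ones, but the lowest trogocytic and the highest non-trogocytic library nearly touched, and non-trogocytic replicate 1 stood far below the rest. The means were 16.5 ± 1.66 TPM in trogocytic and 9.57 ± 6.02 TPM in non-trogocytic co-cultures (SD, n = 4 each), with a log2 difference of 1.07 ± 0.62 (SE). Without non-trogocytic replicate 1 the difference was 0.39. Of all tested genes, 2.68% had groups that did not overlap, and 1.37% did so with the trogocytic libraries higher. Among the 6 tested members Pvr was the only such gene, and none had the reverse pattern.

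Nectin2, on the minus strand of chromosome 7 from 19716644 to 19750483, encodes a ligand that CD226 and, more weakly, TIGIT bind. It stood at 0.655, 2.30, 5.62 and 3.70 TPM in trogocytic replicates 1 to 4, against 1.63, 3.06, 0.407 and 6.71 TPM in non-trogocytic replicates 1 to 4. Both groups spanned nearly the same range, with a log2 difference of 0.14 ± 0.63 (SE). It turned to −0.15 when trogocytic replicate 3 was left out and to −0.27 when non-trogocytic replicate 3 was. Leaving out non-trogocytic replicate 4 gave 0.55 and leaving out trogocytic replicate 1 gave 0.51, and it was 0.031 and 0.011 without non-trogocytic replicate 1 and trogocytic replicate 4. With Ptprc as a covariate it was 0.39. Gm20512, on the other strand, overlaps Nectin2 and stood at a mean of 0.772 TPM and a maximum of 3.96 TPM. Reads of the pair cannot be told apart without strand.

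Nectin3, a nectin that pairs with other nectins across cell contacts, lies on the minus strand of chromosome 16 from 46387706 to 46498525. It stood at 12.1, 26.2, 14.9 and 2.28 TPM in trogocytic replicates 1 to 4, against 6.397, 7.39, 18.0 and 17.6 TPM in non-trogocytic replicates 1 to 4. Trogocytic replicates 2 and 4 held the highest and the lowest value of all libraries, and the groups overlapped. The log2 difference was −0.06 ± 0.65 (SE). It was 0.55, 0.15 and 0.14 without trogocytic replicate 4, non-trogocytic replicate 3 and non-trogocytic replicate 4, and −0.47, −0.30, −0.24, −0.21 and −0.12 without trogocytic replicate 2, non-trogocytic replicates 1 and 2 and trogocytic replicates 3 and 1.

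The remaining nectins had the lowest levels of the members. Nectin1, the founding adhesion nectin, on the plus strand of chromosome 9 from 43743984 to 43807461, was listed at 0 in all 4 trogocytic libraries and stood at 0.288 and 0.559 TPM in non-trogocytic replicates 2 and 4, with 0 in replicates 1 and 3. Nectin4, an epithelial nectin that human TIGIT also binds, lies on the plus strand of chromosome 1 from 171370099 to 171388598. It stood at 0.306 and 1.71 TPM in trogocytic replicates 1 and 3 and was listed at 0 in replicates 2 and 4, against 0.518, 0.675 and 0.144 TPM in non-trogocytic replicates 1, 3 and 4 and 0 in replicate 2.

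**Figure D1:**
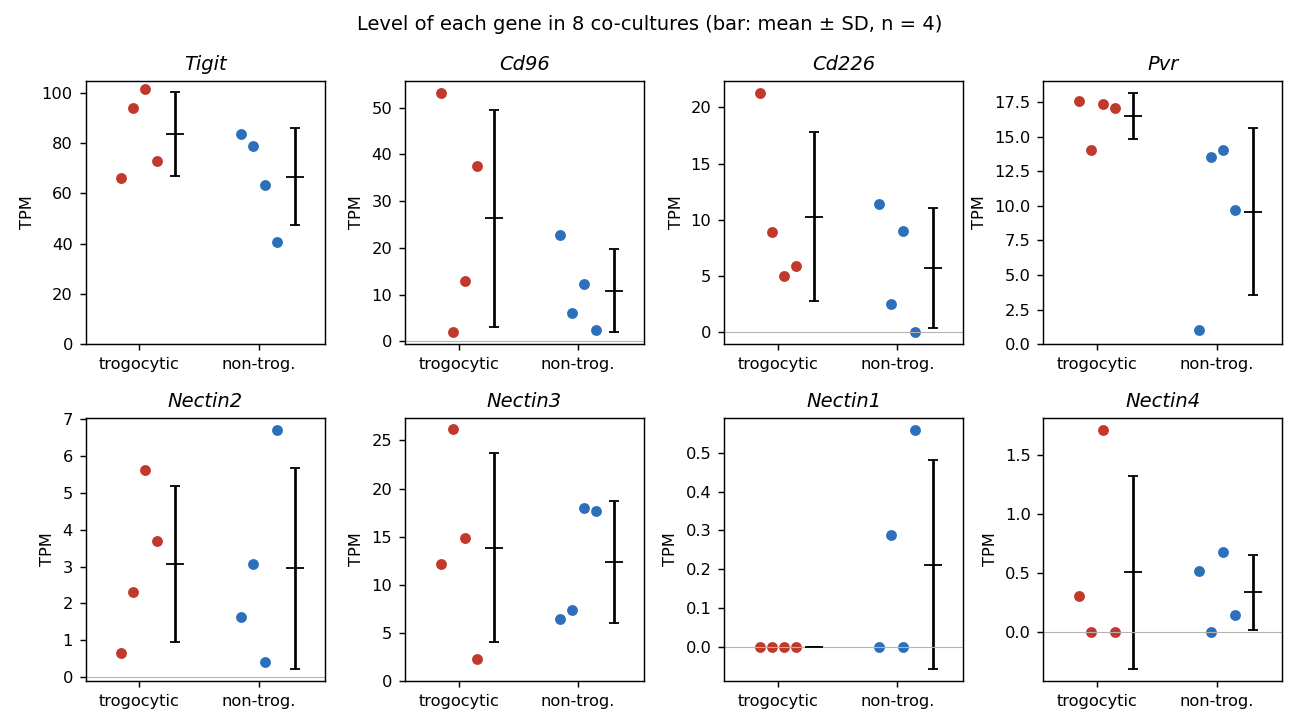
TPM of the 8 genes in each library (points, replicates 1 to 4 from left to right), with trogocytic co-cultures at left and non-trogocytic ones at right; bars are the mean ± SD (n = 4). Tigit stands at 40.8 to 102 TPM, and Pvr is the gene whose groups do not overlap, by a margin of 14.03 against 14.02 TPM.

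In the fit over all 11433 tested genes (limma with Benjamini-Hochberg adjustment over all of them), 0.0525% of genes were called at an adjusted p below 0.05. None of the 6 tested members was called, each with an adjusted p of 0.9998, and 0 of the 6 had an unadjusted p below 0.05, against 4.59% of all tested genes. The smallest was 0.112, for Pvr. The fold change was above 0 for 5 of the 6, against 50.7% of all tested genes, and below 0 for Nectin3. These p-values do not show that the levels were alike.

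**Figure D2:**
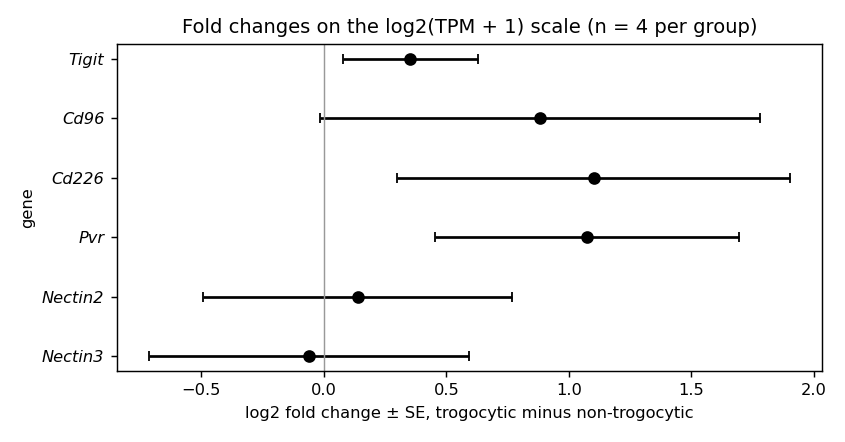
Log2 fold change of the 6 tested genes on the log2(TPM + 1) scale, trogocytic minus non-trogocytic, as points with SE bars (n = 4 per group). Cd226 and Pvr have the highest values, 1.10 and 1.07, and Nectin3 stands at −0.06.

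Ordered by mean level over the 8 libraries, Tigit (75.2 ± 19.0 TPM, SD, n = 8) came first and exceeded Cd96 (18.6 ± 18.3 TPM) in 8 of 8 libraries. From there the order was not stable. Cd96 exceeded Nectin3 (13.1 ± 7.69 TPM) in 3 of 8, Nectin3 exceeded Pvr (13.0 ± 5.52 TPM) in 4 of 8, Pvr exceeded Cd226 (7.997 ± 6.52 TPM) in 6 of 8 and Cd226 exceeded Nectin2 (3.01 ± 2.26 TPM) in 5 of 8 libraries. These neighbours do not differ beyond their spread. Nectin2 exceeded Nectin4 (0.419 ± 0.580 TPM) in 7 of 8 libraries.

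Whether Tigit follows the T cell genes or the epithelial genes was then asked over the 8 libraries. Tigit tracked neither clearly. With the mean log2(TPM + 1) of 16 T cell genes, Pearson's r was 0.41 (exact permutation p = 0.318, two-sided, n = 8) and Spearman's rho 0.10 (exact permutation p = 0.840). With the mean of 15 epithelial genes, r was −0.24 (exact permutation p = 0.555) and rho −0.21 (exact permutation p = 0.619). The difference between these values of r was 0.65 (exact permutation p = 0.374, adjusted to 0.525 over the 6 members). Adjusted over the 36 relations of 6 members with 6 references, the p-values of r were 0.409 for the T cell list and 0.666 for the epithelial list.

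Single genes gave the same picture. Tigit had an r of 0.53 with Cd3e and 0.22 with Trac, with a rho of 0.00 and −0.07, and an r of −0.05 with Krt18 and −0.51 with Epcam, with a rho of 0.17 and −0.14. The exact permutation p of r lay between 0.179 and 0.898 and that of rho between 0.703 and 1.0 for these 4 genes, and none passed after adjustment (0.358 to 0.950 for r, 0.904 to 1.0 for rho). The weak positive relation with the T cell list rested on 1 library. Without non-trogocytic replicate 4, the lowest for both, r was −0.40 (exact permutation p = 0.364, n = 7). Without the 2 libraries farthest from the median of the T cell list, trogocytic replicate 1 and non-trogocytic replicate 4, it was −0.12 (exact permutation p = 0.819, n = 6). For the epithelial list r was 0.022 without non-trogocytic replicate 4, and it was −0.50 without the 2 farthest libraries, non-trogocytic replicates 1 and 2 (exact permutation p = 0.332, n = 6).

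The order of the libraries differed between the groups, a pattern picked out after the values were seen and not tested. In the trogocytic libraries Trac stood at 321, 52.1, 33.5 and 202 TPM in replicates 1 to 4, and Cd3e at 32.3, 18.1, 8.71 and 42.6 TPM. Tigit was lowest in trogocytic replicates 1 and 4, where both genes were high, and highest in replicate 3, where both were lowest. In the non-trogocytic libraries Trac stood at 121, 68.1, 59.6 and 18.0 TPM and Cd3e at 51.9, 19.95, 21.1 and 1.47 TPM. There Tigit and Trac were both highest in replicate 1 and lowest in replicate 4, and their order was the same throughout. The ratio of Tigit to Cd3e in TPM ran from 1.71 to 11.7 in the trogocytic and from 1.61 to 27.8 in the non-trogocytic libraries, a span set by Cd3e more than by Tigit.

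**Figure D3:**
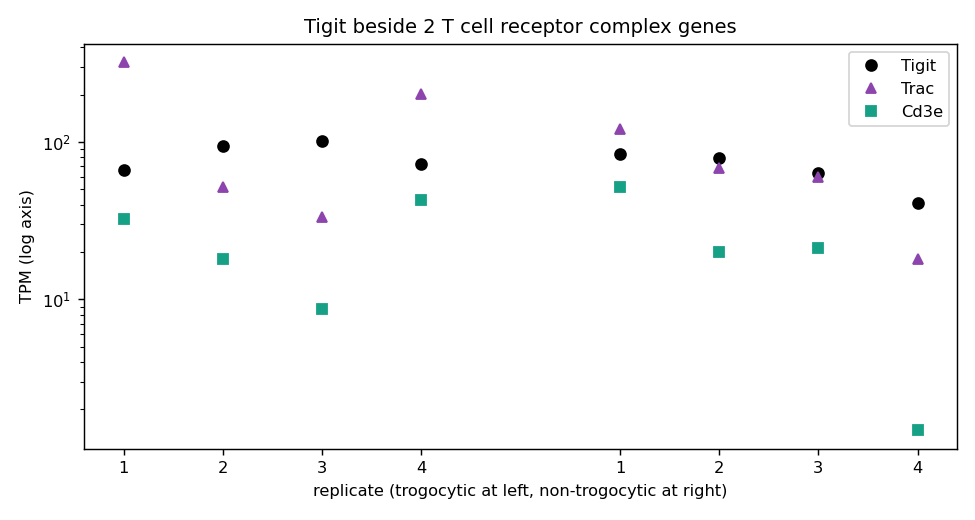
TPM of Tigit, Trac and Cd3e in each library on a log axis, with trogocytic replicates 1 to 4 at left and non-trogocytic replicates 1 to 4 at right. Tigit stays between 40.8 and 102 TPM, while Cd3e runs from 1.47 to 51.9 TPM.

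The steadiness of Tigit was not that of the T cell genes. Its SD over the 8 libraries was 0.40 on the log2(TPM + 1) scale, whereas the 16 T cell genes had a median SD of 1.11. Of these genes 1, the receptor beta chain gene Trbc1 (0.34), had a smaller SD than Tigit. The 15 epithelial genes had a median SD of 0.67, with 2 below Tigit, Epcam (0.28) and Tspan8 (0.39). For comparison, 973 genes averaged 50 to 100 TPM, their median SD was 0.43, and 42.7% had a smaller SD than Tigit. Of the 16 T cell genes, 15 had a higher r with the rest of their own list than the 0.41 of Tigit, with a median of 0.86.

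Cd96 and Cd226 stood closer to the T cell genes. Cd226 had an r of 0.87 with the T cell list (exact permutation p = 0.00531, n = 8, adjusted p = 0.162 over the 36 relations), with a rho of 0.71 (exact permutation p = 0.0576). With the epithelial list its r was −0.65 (exact permutation p = 0.0863) and its rho −0.79 (exact permutation p = 0.0279). The difference between both values of r was 1.52 (exact permutation p = 0.00149, adjusted to 0.00893 over the 6 members). For members other than Tigit this difference was added after the data were seen, and it was not repeated with libraries left out. The T cell and epithelial lists themselves had an r of −0.50 with each other (exact permutation p = 0.199). Cd96 had an r of 0.77 with the T cell list (exact permutation p = 0.0244, adjusted p = 0.162) and a rho of 0.67 (exact permutation p = 0.0831). Its difference was 1.35 (exact permutation p = 0.0244, adjusted p = 0.0731). None of the 36 relations passed after adjustment. Without trogocytic replicate 1 and non-trogocytic replicate 4, the T cell list relation was 0.45 for Cd226 and 0.50 for Cd96 (exact permutation p = 0.364 and 0.333, n = 6). These libraries are the farthest from the median of the list, and leaving them out narrows its range. The lower values thus cannot show whether both relations rest on those libraries. Centred on the group means, r was 0.84 for Cd226 and 0.75 for Cd96, against 0.24 for Tigit. Cd96 and Cd226 also moved with the leukocyte gene Ptprc, with an r of 0.80 and 0.82 (rho 0.83 and 0.86), against 0.35 (rho 0.12) for Tigit, with an exact permutation p of 0.0186, 0.00908 and 0.402 for r and 0.0154, 0.0107 and 0.793 for rho. The part of the overall leukocyte share in the T cell relations was not tested.

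**Figure D4:**
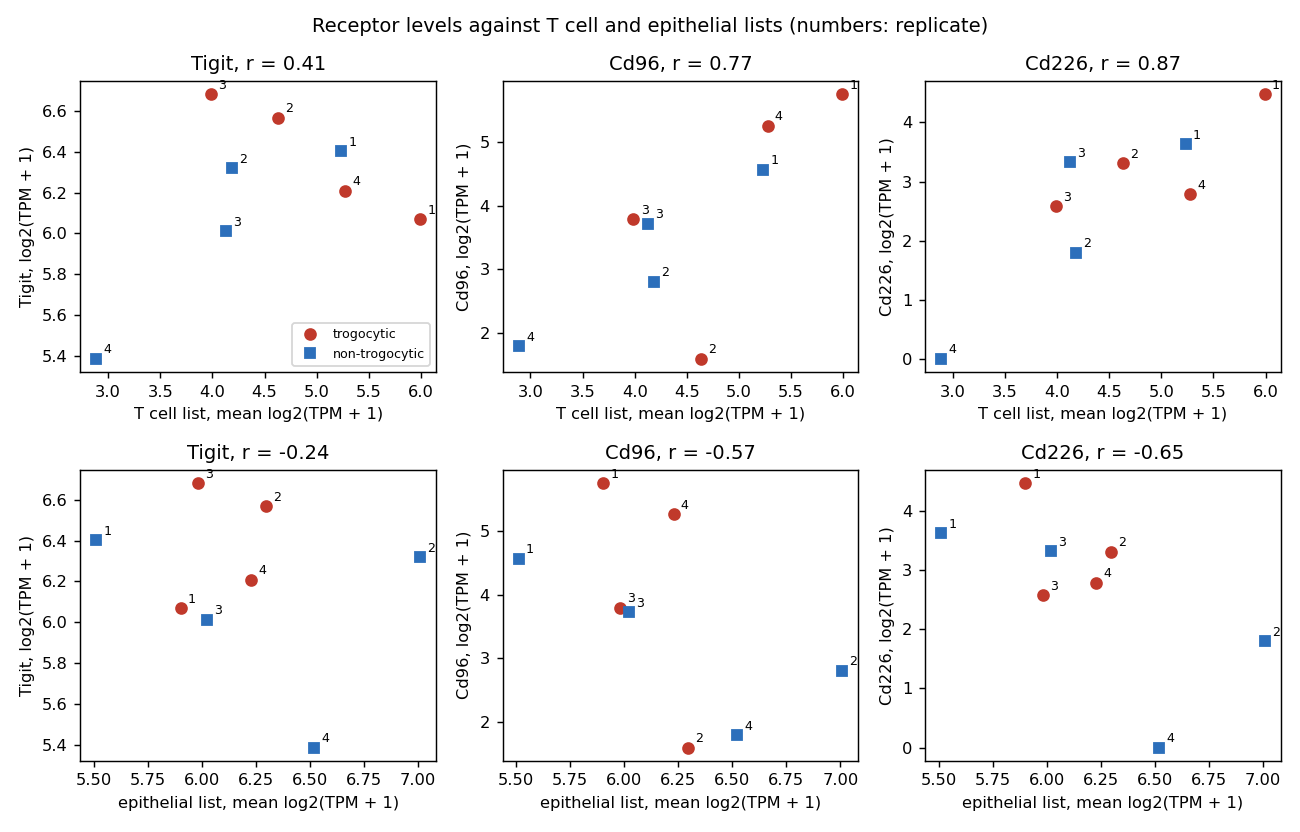
Log2(TPM + 1) of Tigit, Cd96 and Cd226 against the mean of the T cell list (top) and of the epithelial list (bottom), 1 point per library with its replicate number, circles for trogocytic and squares for non-trogocytic co-cultures. Cd226 has an r of 0.87 with the T cell list, and the lowest point of each top panel but that of Cd96 is non-trogocytic replicate 4.

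None of the ligand genes had a relation with either list that passed after adjustment. Nectin2 had an r of −0.59 with the T cell list (exact permutation p = 0.124, rho −0.50, p = 0.216) and 0.43 with the epithelial list (exact permutation p = 0.297, rho 0.48, p = 0.243). Without the 2 libraries farthest from the median of each list these were −0.0068 and 0.61. Nectin3 had −0.45 (exact permutation p = 0.270, rho −0.52, p = 0.197) and 0.026 (exact permutation p = 0.950, rho 0.24, p = 0.582), and −0.64 and 0.053 without those libraries. Pvr had −0.10 (exact permutation p = 0.831, rho 0.36, p = 0.389) and 0.48 (exact permutation p = 0.239, rho −0.24, p = 0.582). Its r was −0.53 and −0.81 without those libraries, so the sign for the epithelial list turned (exact permutation p = 0.0278 for the −0.81, n = 6, not adjusted). Adjusted over the 36 relations, p lay between 0.307 and 0.950 for these values of r over 8 libraries. Pvr had an r of 0.75 with Krt18 (rho 0.10, exact permutation p = 0.0870 for r and 0.840 for rho, adjusted p = 0.290 for r). Pvr and Krt18 were both lowest in non-trogocytic replicate 1, and Krt18 was highest in non-trogocytic replicate 2. Without these 2 libraries it was −0.18 (exact permutation p = 0.733, n = 6). Between members, the strongest of 15 pairs was Cd226 with Nectin2 at r = −0.78 (rho −0.86, exact permutation p = 0.0175 and 0.0107, adjusted p = 0.262 and 0.161), and −0.58 without the 2 libraries farthest from the median of Cd226 (exact permutation p = 0.236, n = 6). TPM values of a library share a fixed sum, so the levels of T cell and epithelial genes are not independent of each other.

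**Figure D5:**
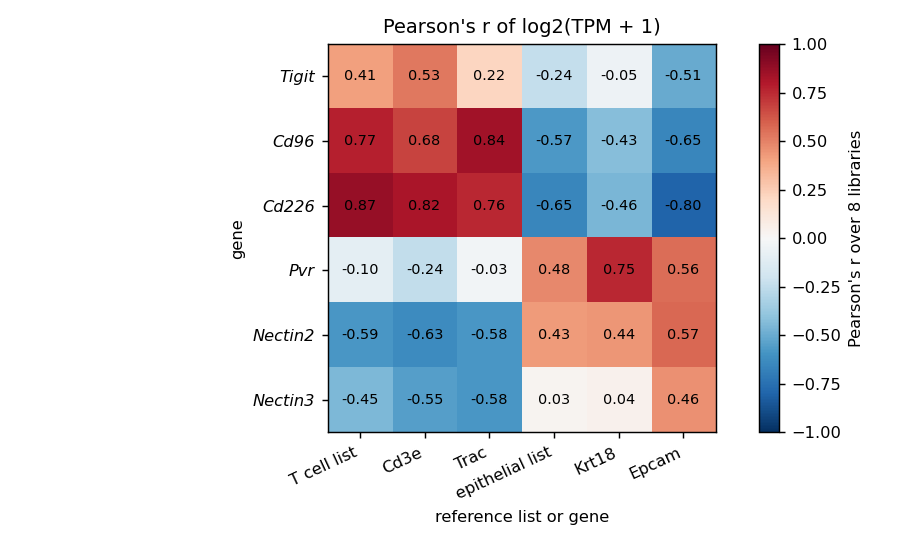
Pearson's r over the 8 libraries between each of the 6 tested genes (down) and the T cell list, Cd3e, Trac, the epithelial list, Krt18 and Epcam (across), on log2(TPM + 1). Cd96 and Cd226 are at 0.68 or above with all 3 T cell references, and Tigit is between 0.22 and 0.53.

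The genes whose pattern was most like that of Tigit were sought among 6051 other genes with a mean of at least 10 TPM. The highest r over the 8 libraries was 0.95 for the keratin gene Krt27, which stood between 9.48 and 90.8 TPM. It was followed by Pgap1, an enzyme of GPI anchor remodelling, at 0.93, Flrt3, an adhesion protein gene, at 0.92, the clone-type gene Gm8186 at 0.90 and 1600012H06Rik at 0.90. The best of the T cell list was Cd3d, at rank 127 with an r of 0.64, and the best of the epithelial list was Krt8 at rank 2726 (r = 0.00087). For the other members the first ranks were H2-Aa for Cd96 (0.94), Nmi for Cd226 (0.97), Platr25 for Pvr (0.97), Frrs1 for Nectin2 (0.93) and Pcbp2 for Nectin3 (0.94). With 8 libraries and 6051 genes, values this high are a description only.

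The deposited coverage of Tigit divided by its FPKM equalled the constant of the library in 8 of 8 libraries, as for genes with 1 transcript. At the length of 919 bases in GENCODE M21, whose version of the gene differs from that in the files, its coverage corresponds to about 128 to 325 read pairs per library, which covers counting error only. No other gene in the files overlaps Tigit. The last 125 bases of that transcript, from 795 to 919, lie after the coding part (60 to 782) and align to transcripts of 12 other genes at 90% identity or more over at least 100 bases, on the same strand for 6 of them. Sp110 stood highest of those with a value in the files, at a mean of 23.9 TPM, and the highest identity was 93.3%. Among the other members, stretches of this kind made up 5.08% of the Nectin2 transcript, where Gm20512 overlaps it, and 1.10% of the Nectin3 transcript, against 13.6% for Tigit and 0 in Cd96, Cd226, Pvr, Nectin1 and Nectin4. The deposited tables give 1 value per gene, and the part of this shared stretch in the level of Tigit was not tested.

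The other genes of the pathway also gave no call. Among 6 related receptors and nectin-like molecules, Pvrig, a receptor for nectin 2, was listed at 0 in all 8 libraries. Cadm1, a nectin-like molecule bound by the T cell receptor CRTAM, was the only one tested, at 51.5 ± 20.7 TPM in trogocytic and 56.1 ± 8.89 TPM in non-trogocytic co-cultures (SD, n = 4 each). Of 9 tested genes of TIGIT and CD226 signalling, 0 passed in either direction, with a median log2 fold change of −0.21, against 0.01 over all tested genes. Grb2, an adaptor that binds the tail of TIGIT, stood at 13.0 ± 10.3 and 13.4 ± 3.25 TPM in trogocytic and non-trogocytic co-cultures. Itgb2, the beta chain of the integrin LFA-1, which associates with CD226, stood at 16.9 ± 10.3 and 24.6 ± 19.0 TPM. Prkca and Ptpn11 had the smallest p in that list, at 2.10 ± 1.76 and 0.816 ± 0.913 TPM and at 7.04 ± 2.48 and 8.63 ± 1.78 TPM in trogocytic and non-trogocytic co-cultures.

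Of 11 tested genes of nectin adhesion, 0 passed in either direction, and the median log2 fold change was 0.01. Afdn, which encodes afadin and was named for its role after its values were seen, stood at 14.1 ± 4.16 TPM in trogocytic and 14.4 ± 4.38 TPM in non-trogocytic co-cultures. Ctnna1, alpha-catenin, stood at 350.3 ± 8.70 and 357 ± 98.3 TPM. Dynlt1b, a dynein light chain gene, stood at 123 ± 12.2 and 96.02 ± 25.3 TPM, and Ssx2ip, an afadin-binding protein, at 4.33 ± 1.65 and 8.53 ± 4.13 TPM.

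Of 10 other inhibitory receptor genes in the files, 4 were tested and 0 passed, and Lag3 and Klrg1 were listed at 0 in all 8 libraries. Ctla4, below the filter, stood at 0.255, 0.869, 1.45 and 7.30 TPM in trogocytic replicates 1 to 4. It was listed at 0 in every non-trogocytic library. The rest of the untested genes of this list overlapped between the groups. Cd200r1 stood at 62.1 ± 35.6 TPM in trogocytic and 74.3 ± 76.4 TPM in non-trogocytic co-cultures. Its mean over the non-trogocytic libraries exceeded that of Tigit through replicate 1 alone, at 185 TPM. In non-trogocytic replicates 2 to 4 it stood at 31.6, 62.7 and 17.5 TPM, below Tigit in each. In trogocytic replicates 1 and 4 it stood at 84.7 and 99.3 TPM, above Tigit at 66.2 and 73.0 TPM. In trogocytic replicates 2 and 3 it stood at 39.0 and 25.2 TPM, below Tigit. Havcr2 stood at 7.31 ± 8.47 and 3.97 ± 2.87 TPM, and Cd244 at 4.81 ± 4.19 and 3.36 ± 2.88 TPM. Of 7 regulatory T cell genes, 4 were tested and 0 passed. Tnfrsf18 stood at 73.4 ± 58.7 TPM in trogocytic and 52.8 ± 23.2 TPM in non-trogocytic co-cultures, Tnfrsf4 at 16.3 ± 17.2 and 11.6 ± 11.7 TPM, and Ikzf2 at 2.28 ± 1.49 and 2.44 ± 1.26 TPM. The defining Foxp3 reached at most 1.64 TPM and did not pass the filter. Of 7 follicular helper T cell genes, 5 were tested and 0 passed, with a median log2 fold change of 0.40. Sh2d1a had the highest log2 fold change of them and of all tested genes, 3.12, and was not called (limma adjusted p = 0.939). It stood at 30.4 ± 16.3 TPM in trogocytic and 6.99 ± 12.3 TPM in non-trogocytic co-cultures. The groups overlapped through non-trogocytic replicate 3 at 25.4 TPM, with replicates 1, 2 and 4 at 0.221, 2.39 and 0 TPM.

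The summed levels of the T cell, epithelial and macrophage marker lists overlapped between the groups. Those of the B cell list, the natural killer cell list and the list of stroma, endothelium and liver did as well. That of the dendritic cell list did not. Summed over 18 T cell genes, the level ran from 648 to 1929 TPM in trogocytic and from 345 to 1265 TPM in non-trogocytic libraries. Of 16 tested genes, 15 had a log2 fold change above 0, against 50.7% of all tested genes. The median was 0.91, against 0.01 over all tested genes. These T cell genes moved together, with a median r of 0.86 with the rest of their list, so they do not count as independent. Summed over 16 epithelial genes the level ran from 6225 to 7687 TPM and from 3855 to 10063 TPM in trogocytic and non-trogocytic libraries, with a median log2 fold change of 0.01. Summed over 8 macrophage genes the level ran from 1607 to 5088 TPM and from 3216 to 14302 TPM, and all 7 tested genes had a log2 fold change below 0. The dendritic cell list summed to 0 to 0.421 TPM in trogocytic and 0.917 to 3.78 TPM in non-trogocytic libraries. None of its 6 genes passed the filter. Col1a1 and Col1a2, also below the filter, were listed at 0 in every trogocytic library. They stood at 0.313 to 2.91 and 0.221 to 7.40 TPM in non-trogocytic ones. Alb and Ttr stood above 0 only in non-trogocytic replicate 3, at 36.5 and 22.4 TPM. None of the tested genes in these lists passed limma's test over all genes. The part of the listed genes and their cell types in the levels of the receptors and ligands was not tested.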

How the data were processed

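Polyadenylated RNA of 4 trogocytic and 4 non-trogocytic co-cultures was sequenced as paired reads of 100 bp, per the labels' protocols. Tools and builds listed without order, per the submitters' processing notes, are StringTie 1.3.3, HISAT2, DESeq (version 2), mm10 and GRCm38. Neither annotation release nor strand setting is stated in these sources. Per the file headers, each deposited table gives a coverage signal (mean depth, unscaled), an FPKM and a TPM per gene, the TPM scaled by the authors to 1 sum per library.

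TPM was summed over rows of a gene ID. Genes with at least 1 TPM in 4 or more libraries entered a two-sided limma 3.58.1 test in R 4.3.3, on log2(TPM + 1) and using limma's trend option, and p-values were adjusted by Benjamini-Hochberg. The script was tested on simulated data. This scale understates changes of low genes. Correlations used all orderings of the libraries (numpy 2.4.6). Shared sequence was sought with BLAST 2.17.0 in GENCODE M21 transcripts. Promoters came from RefSeq, with windows kept for 5 of 8 members. Entries on chromosome 18, which holds Cd226, were left out of this step. Genes named are the members, Cd3e, Trac, Krt18, Epcam, Ptprc, the genes most like each member, and per list the 2 with the highest mean and the 2 with the smallest p, a part of which is printed. Ncr1, Klra8, Gzmb, Klrd1, Cd4, Cd3d, Krt8, Foxp3, Afdn, Pvrig, Lag3, Klrg1, Ctla4, Col1a1, Col1a2, Alb, Ttr, Tspan8 and the gene of shared sequence Sp110 fall outside that rule and were chosen after their values were seen. Members and lists were chosen with earlier results of these data known. Alternatives covered unit, pseudocount, filter, scaling, trend, Ptprc as covariate, replicate block and libraries left out. The fit lacking replicate 1 of each group, the list without Trbc1, and the difference of r for members other than Tigit were added after seeing the data.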

Additional observations from a re-analysis of the deposited data

Results flagged for a closer look

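Pvr in the trogocytic libraries stood apart by its lowest value, 14.03 TPM in replicate 2, with the other 3 at 17.0 to 17.6 TPM. The gap to the nearest library exceeded Dixon's critical value for 4 samples, which chance exceeds in about 1 of 20 groups. The rule was applied in both groups to every member, Cd3e, Trac, Krt18, Epcam and both list means. Among so many groups, a single flag can arise by chance.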

How the results depend on the processing

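No member was called under any of 19 alternatives, with adjusted p-values of at least 0.632. Tigit, Cd96, Cd226 and Pvr kept a fold change above 0 in all 19, at 0.14 to 0.58, 0.33 to 1.72, 0.37 to 2.77 and 0.36 to 1.37, where the 2.77 for Cd226 came with a pseudocount of 0.01 and the library at 0. Leaving out 1 library gave −0.27 to 0.55 for Nectin2, which has no value with a mean TPM of at least 5, and −0.47 to 0.55 for Nectin3, and Ptprc as a covariate gave 0.33 for Cd96, 0.62 for Cd226, 0.39 for Nectin2 and 0.079 for Nectin3. The number of genes called over all tested genes, 6, fell to 2 at a pseudocount of 0.01, 1 when unfiltered, 1 when limma used no trend, 0 lacking replicate 1 of each group, and 0 to 3 with 1 library left out; fewer samples are then fitted. A replicate block gave 0 calls, as did the block joined to median-of-ratios scaling. Whether samples with the same number are paired is not stated in the labels. Their deviations correlated at 0.24, 0.01, 0.06 and −0.09, which cannot settle it. The correlation of Tigit with the T cell list ran from −0.40 to 0.63 and that with the epithelial list from −0.48 to 0.022 with 1 library left out. Both changed sign only without non-trogocytic replicate 4. The cause of these shifts was not tested. Depth was not varied, so low levels of Nectin1, Nectin2 and Nectin4 and limited depth cannot be told apart.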
